A study of Mus musculus with 54 samples.

Results

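The spread between livers taken at the same clock time was compared among 3 genotypes of mice, and all 54 of the 54 liver libraries were used. In RE mice, a floxed STOP sequence in the clock gene Bmal1 (symbol Arntl) is carried together with Syt10-Cre, a driver that restores Bmal1 in the central clock of the brain, the suprachiasmatic nucleus (SCN). KO mice carry the same floxed STOP allele without Cre, and WT mice express Bmal1 in every tissue. Each genotype gave 3 livers at each of 6 clock times spaced by 4 h from ZT0 to ZT20 (hours after lights on), which makes 18 groups of 3 livers. Whole liver and total RNA were used in all groups. The labels state no age. The liver of RE and of KO mice carries the STOP allele alike, and the comparison of RE with KO mice therefore sets a mouse with a central clock beside a mouse without one. For each gene, the spread was the SD of log2(FPKM + 1) over the 3 livers of a group, and its square was averaged over the 6 times of a genotype. FPKM are fragment counts scaled to transcript length and to library size. A gene was kept if its FPKM averaged 1 or more across the 54 libraries, as 10124 of 24346 gene symbols did.

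The clock protein BMAL1 pairs with CLOCK or NPAS2 and switches on genes whose products, the PER and CRY proteins and the REV-ERB receptors, in turn shut BMAL1 and CLOCK down. In liver this loop runs alongside daily cues from meals, body temperature and hormones, some of which, such as growth hormone and glucocorticoids, are secreted in pulses. Transcripts that answer to such cues, or to infection, are known to differ between animals killed at one hour, whereas transcripts of the proteasome or respiratory chain are usually held at a steady level.

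Total FPKM per library lay between 572995 and 751399, and 14654 to 15810 genes lay above 0. Y-linked Ddx3y was read at 6.65 to 22.3 FPKM and Xist at no more than 0.0827 FPKM in all 54 livers. FPKM give 1 value for Arntl, which cannot tell transcripts with the STOP sequence from those without and so does not check the genotype: it was 7.60 to 15.5 in RE, 9.76 to 14.2 in KO and 0.202 to 10.3 in WT livers. Livers are named here by genotype, time and the number in their column (0, 1 or 2). A few livers stood apart from the others of their group. RE ZT16 liver 2 held 13.6% of the squared deviations of all genes in RE livers, where an equal share would be 5.56%. KO ZT8 livers 1 and 0 held 8.66% and 8.13% of those in KO livers, and WT ZT0 liver 0 held 8.94% of those in WT livers. KO ZT8 liver 1 also had the lowest total FPKM of the 54. Many values that rest on one of these livers are given with and without it below.

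The median spread between same-time livers was larger in RE than in WT mice at every time, by little at ZT4. The median SD over the 10124 genes was 0.20, 0.12, 0.18, 0.13, 0.20 and 0.16 at ZT0 to ZT20 in RE livers. In KO livers it was 0.12, 0.14, 0.21, 0.15, 0.13 and 0.11, and in WT livers 0.14, 0.12, 0.095, 0.12, 0.10 and 0.12. RE livers spread widest at ZT0, ZT8 and ZT16, KO livers at ZT8, and the 6 WT values stayed between 0.095 and 0.135. RE livers at ZT4 and ZT12 and KO livers at ZT0, ZT16 and ZT20 lay within that band, and the other RE and KO values lay above it. Averaged over the 6 times, the median SD was 0.165 ± 0.0359 in RE, 0.145 ± 0.0325 in KO and 0.114 ± 0.0139 in WT livers (SD over 6 groups each).

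**Figure D1:**
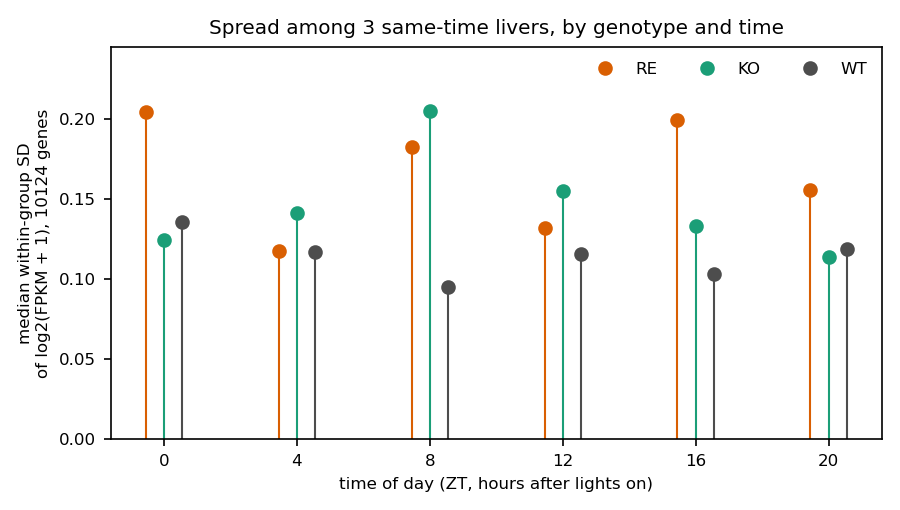
Median over 10124 genes of the SD of log2(FPKM + 1) between the 3 livers of a group (y axis) by clock time in hours (x axis), with RE, KO and WT livers as separate series. RE lies above WT at all 6 times, KO lies above WT at 4 of 6, and the RE and KO series cross.

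RE livers exceeded WT livers by 0.0509 ± 0.0391 (mean and SD of the 6 differences) and were the wider at 6 of 6 times, though at ZT4 the medians were 0.118 in RE and 0.117 in WT livers. That count was 5 of 6 (adjusted p = 0.1875) with a pseudocount of 0.1, with no filter, with a 5 FPKM filter and with libraries scaled to their median ratio. An exact two-sided sign-flip permutation test over the 6 times gave p = 0.03125, the smallest that its 64 arrangements allow, and p = 0.09375 after Benjamini-Hochberg adjustment over the 3 pairs. KO livers exceeded WT livers by 0.0311 ± 0.0435 and were the wider at 4 of 6 times (exact permutation p = 0.125, adjusted p = 0.1875), and the excess was 0.0153 without ZT8 and 0.0207 without KO ZT8 liver 1. RE livers exceeded KO livers by 0.0198 ± 0.0486 at 3 of 6 times (exact permutation p = 0.40625). None of the 3 pairs passed 0.05 after adjustment, and 0.03125 is the least that this paired design can give before adjustment. The excess of RE over KO livers was 0.00775 without RE ZT16 liver 2, 0.0302 without KO ZT8 liver 1, 0.00776 without ZT0 and 0.0104 without ZT16. The KO and RE comparisons share the WT livers. Each library was taken as the liver of a separate mouse. The titles give genotype, time, a number and the word liver, with no word on litters or cages. These p-values rest on the 6 differences between group medians and not on single livers.

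Gene by gene, 8778 of 10124 genes (86.7%) had a larger averaged variance in RE than in WT livers, and the median log2 ratio of the variances was 1.11, where 1 stands for a 2-fold variance. In KO against WT livers the count was 7977 (78.8%) with a median of 0.77, and in RE against KO livers 6587 (65.1%) with a median of 0.35. The ratio grew with expression. In the 3777 genes with a mean of 1 to 5 FPKM the median log2 ratio was 0.88 for RE over WT and 0.58 for KO over WT, and in the 880 genes at 100 FPKM or more it was 1.44 and 1.16. The pseudocount of 1 compresses the spread of low genes. An SD above 0.5 was reached by 471 genes in RE, 385 in KO and 163 in WT livers. The depth of the libraries is unknown, because FPKM hold no counts.

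**Figure D2:**
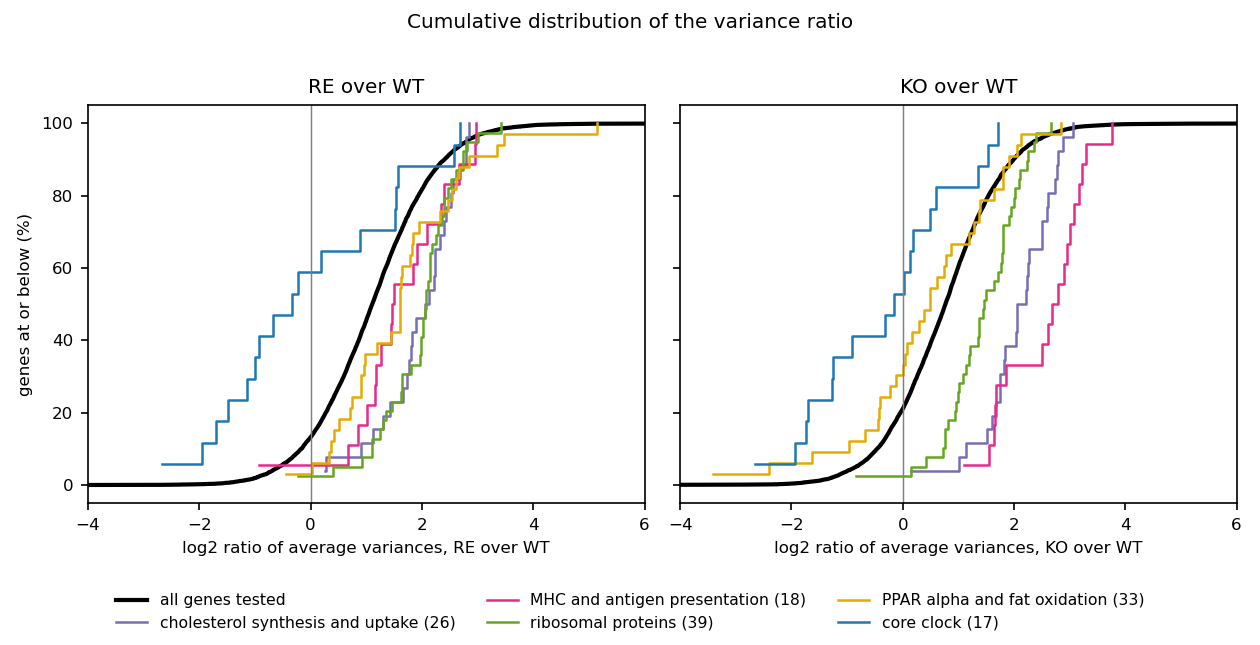
Cumulative share of genes (y axis, percent) by the log2 ratio of averaged within-group variances (x axis), RE over WT in one panel and KO over WT in the other, for all 10124 genes and for several gene lists. The line of all genes crosses 50% at 1.11 and 0.77, and the core clock lies left of it. Among the lists drawn, cholesterol genes (2.09) and ribosomal proteins (2.07) have the largest medians for RE, and MHC genes (2.73) for KO.

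Most genes had a larger variance in RE and in KO than in WT livers, but few passed a strict test gene by gene. limma, run across all genes on the 18 group SDs with genotype and time as terms, called 3 genes wider in RE than in WT livers (0.0296% of the genes tested) and none narrower (0%), with 1750 genes at an unadjusted p under 0.05. It called 2 genes wider (0.0198%) and 1 narrower (0.00988%) in KO than in WT livers, with 721 at an unadjusted p under 0.05, and none between RE and KO livers (0%), with 626. An F test of the averaged variances, an alternative that assumes normal deviations within groups, called 695 genes wider (6.86%) and 9 narrower (0.0889%) in RE than in WT livers, 6.95% in all. For KO against WT it called 98 wider (0.968%) and 15 narrower (0.148%), 1.12% in all, and for RE against KO 12 wider (0.119%) and 3 narrower (0.0296%). Much of the RE count rested on 1 liver: 152 genes passed the F test in RE against WT without RE ZT16 liver 2, and 384 to 457 without WT ZT0 liver 1, any WT ZT8 liver, WT ZT16 liver 1 or 2, or RE ZT8 liver 0. With each of the 54 livers left out in turn, 90 of the 695 and 37 of the 98 passed every time. When tested on simulated data with heavy-tailed deviations, the F test called many genes that had no change, so its calls are given below as counts for each list and not read as changes of single genes. Genes are described by their values in single livers and by the log2 ratio of variances, with the adjusted p of limma. Of 387 list members named by rule, 77 passed the F test in RE against WT, with limma adjusted p-values of 0.114 to 0.727. The rule picked members by the size of the same variance ratio, so the share that passed is raised by the choice. In KO against WT livers 24 passed the F test, of which limma called 1, Pnpla3.

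The lists with the widest spread differed between the genotypes. Lists were ordered by the median over their members of the pooled SD, the square root of the averaged variance, among 36 lists of pathways and programmes with at least 3 genes tested. The median over all genes was 0.20 in RE, 0.17 in KO and 0.13 in WT livers. In RE livers the order was led by male-biased genes (0.76), the major urinary proteins (0.73) and glucocorticoid receptor targets (0.66). In KO livers it was led by glucocorticoid receptor targets (0.65), fat synthesis (0.56), gluconeogenesis (0.55) and the interferon response (0.51). In WT livers female-biased genes (0.51), the major urinary proteins (0.46) and glucocorticoid receptor targets (0.37) came first. Proteasome subunits came last in all 3, at 0.13, 0.12 and 0.083 in RE, KO and WT livers. Neighbours in these orders were close, and their differences were not tested.

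**Figure D3:**
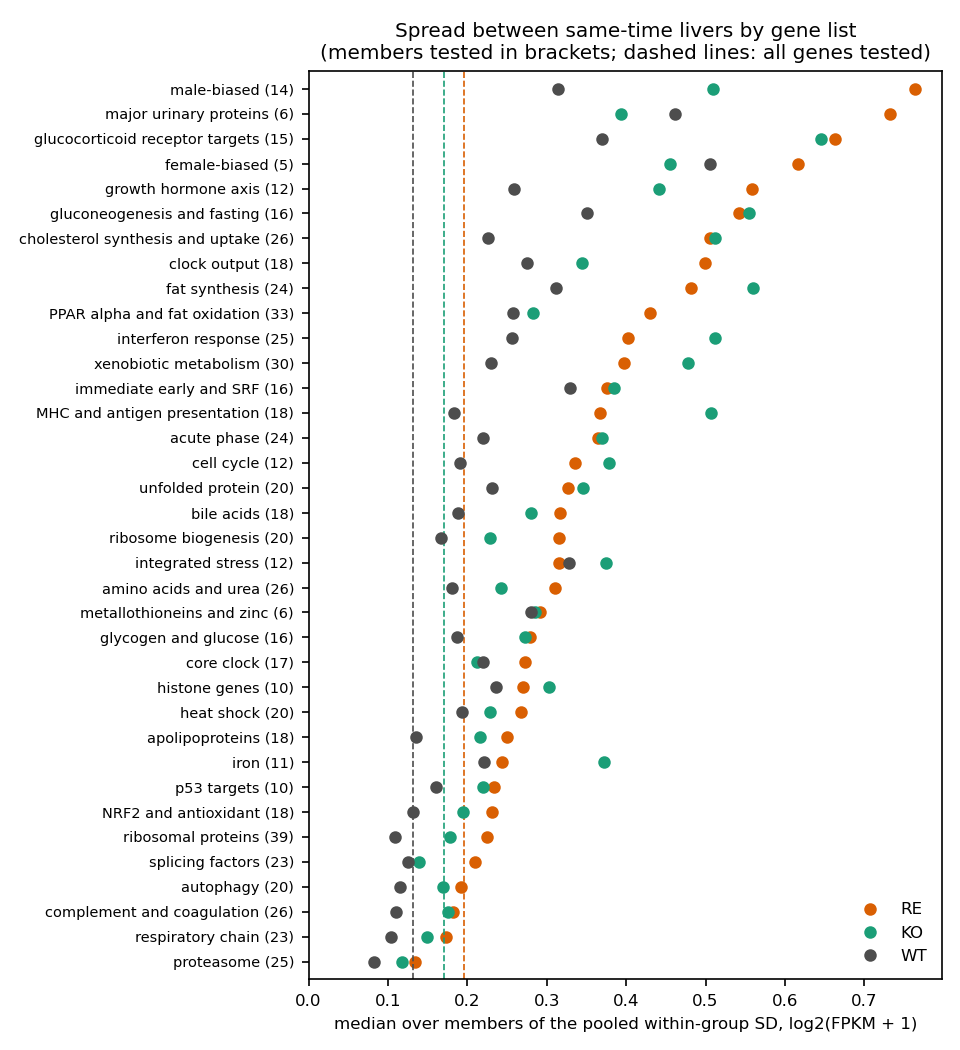
Median pooled SD of log2(FPKM + 1) between same-time livers (x axis) of the genes tested in each of 36 lists (y axis), with RE, KO and WT livers as separate points and the median of all genes for each genotype as lines. Male-biased genes reach 0.76 in RE livers against 0.31 in WT livers, whereas proteasome subunits stay below 0.14 in all 3 genotypes.

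Male-biased liver genes, which are expressed more in male than in female liver under pulsed growth hormone, spread most in RE livers. Their 14 members had a median pooled SD of 0.76 in RE, 0.51 in KO and 0.31 in WT livers. The variance was larger in RE than in WT livers for 14 of 14 members, and 7 passed the F test as wider, beside 86.7% and 6.86% of all genes. In KO against WT livers 11 (78.6%) were larger, much the same share as the 78.8% of all genes, and 2 passed, beside 0.968%. The median log2 ratio was 2.57 for RE over WT and 1.63 for KO over WT, and 1.15 for RE over KO. For all genes these medians were 1.11, 0.77 and 0.35. One liver carried much of it: without RE ZT16 liver 2 the RE over WT median was 1.75 and the RE over KO median 0.32. The KO over WT median was 0.99 without WT ZT0 liver 0.

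Cyp4a12a, a male-specific cytochrome P450 that hydroxylates fatty acids, read 145, 139.7 and 4.41 FPKM in RE livers 0, 1 and 2 at ZT16. Across all times it ran from 4.41 to 145 FPKM with a median of 95.01 FPKM in RE, from 7.71 to 157 FPKM with a median of 58.8 FPKM in KO and from 95.8 to 190.3 FPKM with a median of 151 FPKM in WT livers. The lowest RE and KO livers lay far below every WT liver, and the ranges overlapped above that. KO livers differed at ZT4, with 17.7, 7.71 and 40.9 FPKM, and at ZT12, with 27.9, 157 and 99.5 FPKM. The pooled SD was 1.24 in RE, 0.95 in KO and 0.26 in WT livers. The variance ratio to WT was 4.51 on the log2 scale in RE (limma, adjusted p = 0.182) and 2.14 without RE ZT16 liver 2. In KO it was 3.73 (adjusted p = 0.608) and 3.30 without KO ZT12 liver 0.

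Its neighbour and near copy Cyp4a12b read 83.5, 94.2 and 0.703 FPKM in the same 3 RE livers, against 44.9 to 90.0 FPKM over all WT livers. Reads of such a pair can be shared, but the sum of the 2 genes spread likewise, with a pooled SD of 1.36 in RE, 0.89 in KO and 0.20 in WT livers. Its log2 ratio to WT was 5.72 in RE (adjusted p = 0.115), 3.33 without RE ZT16 liver 2 and 6.35 without WT ZT12 liver 1. In KO it was 4.09 (adjusted p = 0.641). Cyp2d9, another male-biased P450, read 1294, 1257 and 437 FPKM in RE livers at ZT0 and 1496, 1456 and 687 FPKM at ZT16. Liver 2 was the low one at both times, and livers of different times are different mice. Its pooled SD was 0.52 in RE, 0.35 in KO and 0.14 in WT livers, and its log2 ratio of RE to WT was 3.78 (adjusted p = 0.118). It was 2.83 without RE ZT0 liver 2 and 4.47 without WT ZT0 liver 2.

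The major urinary proteins, pheromone carriers that the liver makes in bulk under growth hormone, had 6 of 21 listed genes tested without a library at 0. Their median pooled SD was 0.73 in RE, 0.39 in KO and 0.46 in WT livers, so that they were among the widest genes of WT livers as well. Mup3 read 11922, 13342 and 3527 FPKM in RE livers at ZT16 and 11786, 13591 and 6258 FPKM at ZT0, against 11389 to 17351 FPKM over all WT livers. Its log2 variance ratio of RE to WT was 3.96 (limma, adjusted p = 0.151), 2.28 without RE ZT16 liver 2 and 4.60 without WT ZT16 liver 0. Mup20, the pheromone darcin, ranged from 5635 to 27055 FPKM in RE, 6788 to 17554 FPKM in KO and 9579.8 to 29939 FPKM in WT livers, with pooled SDs of 0.51 in RE, 0.38 in KO and 0.43 in WT livers. How reads were divided among these similar genes is uncertain. The list median moved widely with single livers, between 0.68 without RE ZT0 liver 2 and 3.06 without WT ZT4 liver 0 for RE over WT, and between -0.78 without WT ZT4 liver 2 and 0.99 without WT ZT4 liver 0 for KO over WT.

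Female-biased genes lay on the other side in some of the same livers. Of 17 listed genes 5 were tested, and 12 lay below the filter. Of these 5, 3 were wider in RE and 2 in KO than in WT livers, beside 86.7% and 78.8% of all genes. Their median log2 ratios were 0.084 and -0.30, beside 1.11 and 0.77 for all genes. The median pooled SD was 0.62 in RE, 0.46 in KO and 0.51 in WT livers, so the list was wide in WT livers as well. Cyp2c69 read 2.58, 4.83 and 250.1 FPKM in RE livers at ZT0 and 138, 7.37 and 2.60 FPKM in KO livers at ZT12, against 0.844 to 7.45 FPKM in WT livers. In RE ZT0 liver 2, the mean of the male-biased genes lay at -1.19 (log2) from the mean of its group, that of the major urinary proteins -1.09, while that of the 5 female-biased genes lay at 1.49. In RE ZT16 liver 2 the female-biased genes lay at 1.08, and in KO ZT12 liver 0 they lay at 0.97 and the male-biased genes at -0.61. In the growth hormone axis, Ghr, the growth hormone receptor, read 287, 262 and 154 FPKM in RE livers at ZT16 and 295, 253 and 168 FPKM in KO livers at ZT16, against 207 to 259 FPKM over all WT livers. Ghr was nearly level among WT livers, with pooled SDs of 0.27 in RE, 0.25 in KO and 0.068 in WT livers. Its log2 variance ratio to WT was 4.01 in RE (limma, adjusted p = 0.194) and 3.78 in KO (adjusted p = 0.581). The RE ratio was 2.99 without RE ZT16 liver 2 and 4.60 without WT ZT4 liver 2, and the KO ratio 3.05 without KO ZT16 liver 2 and 4.36 without WT ZT4 liver 2. Igfals, the acid-labile subunit that holds IGF1 in blood, read 71.1, 52.8 and 11.5 FPKM in RE livers at ZT16. Its RE to WT ratio of 3.95 was 1.92 without RE ZT16 liver 2 and 4.62 without RE ZT16 liver 1.

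Glucocorticoid receptor targets, genes that the stress and daily hormone corticosterone switches on, spread widely in all 3 genotypes. The median pooled SD of the 15 members was 0.66 in RE, 0.65 in KO and 0.37 in WT livers. The variance was larger than in WT livers for 14 of 15 in RE and 13 of 15 in KO livers, beside 86.7% and 78.8% of all genes, with median log2 ratios of 1.60 and 1.80 beside 1.11 and 0.77. By the F test 3 passed as wider in RE and 0 in KO, beside 6.86% and 0.968% of all genes. Leaving out single livers kept the medians between 1.32 without RE ZT16 liver 2 and 2.07 without WT ZT12 liver 1 for RE, and between 1.40 without KO ZT8 liver 2 and 2.11 without KO ZT0 liver 0 for KO.

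The metallothioneins Mt1 and Mt2, small metal-binding proteins whose genes answer to zinc and to glucocorticoids, differed most. Mt1 read 3.30, 7.65 and 149 FPKM in RE livers at ZT0 and 27.9, 512 and 199 FPKM at ZT8. In KO livers it read 172, 836 and 21.8 FPKM at ZT4 and 26.1, 90.6 and 368 FPKM at ZT0, and in WT livers at ZT8, their widest time, 22.4, 55.7 and 108 FPKM. In each of these RE and KO groups 1 liver stood far above the lowest. The largest ratio between livers of one group was 45.3 in RE, 38.3 in KO and 4.81 in WT livers. The pooled SD was 1.74 in RE, 1.86 in KO and 0.68 in WT livers for Mt1 and 1.82 in RE, 1.97 in KO and 0.75 in WT livers for Mt2. The log2 variance ratio of Mt1 to WT was 2.70 in RE (limma, adjusted p = 0.328) and 2.02 without RE ZT0 liver 2. In KO it was 2.88 (adjusted p = 0.669). The whole list of 6 metallothionein and zinc genes had a median pooled SD of 0.29 in RE, 0.29 in KO and 0.28 in WT livers. The F test called 2 of them wider in RE and 0 in KO, beside 6.86% and 0.968% of all genes.

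The promoters of these 2 genes are shown because both genes were high in the same livers. They are the 250 bases before the start of each gene in RefSeq on GRCm38.p6, read 5′ to 3′ on the gene's strand. Capitals mark matches on either strand to TGCNCNC, the core of the metal response element bound by MTF1.
Mt1 (chr8:94178839-94179088, plus strand): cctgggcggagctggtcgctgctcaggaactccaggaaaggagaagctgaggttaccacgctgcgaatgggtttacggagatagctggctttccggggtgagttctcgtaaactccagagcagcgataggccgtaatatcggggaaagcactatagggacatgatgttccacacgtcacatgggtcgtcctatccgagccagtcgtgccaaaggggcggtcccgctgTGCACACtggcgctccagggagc
Mt2 (chr8:94172368-94172617, plus strand): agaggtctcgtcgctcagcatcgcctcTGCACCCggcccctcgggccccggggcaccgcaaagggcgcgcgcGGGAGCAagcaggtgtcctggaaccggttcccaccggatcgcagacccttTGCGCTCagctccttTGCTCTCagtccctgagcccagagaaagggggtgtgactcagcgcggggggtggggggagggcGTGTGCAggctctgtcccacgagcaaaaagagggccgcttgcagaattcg
Mt1 held 1 match and Mt2 held 5 in this window. Bases after the annotated start were not scanned, so the counts do not compare the whole promoters of the 2 genes. The same short core was found in 12755 of 27025 promoters of this length (47.2%), so a match is common, and it is given as a description only.

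Lpin1, a phosphatidate phosphatase that rises on fasting, read 5.80, 6.77 and 123 FPKM in RE livers at ZT8 and 13.8, 100.2 and 31.1 FPKM at ZT12. The 3 WT livers at ZT12, the WT peak, were nearly level at 64.9, 69.5 and 62.9 FPKM. Its pooled SD was 1.203 in RE, 0.74 in KO and 0.33 in WT livers, and its log2 variance ratio of RE to WT was 3.77 (limma, adjusted p = 0.151), 2.28 without RE ZT8 liver 2 and 4.60 without WT ZT0 liver 2. Sgk1, a kinase induced by glucocorticoids, read 15.1, 12.5 and 38.0 FPKM in RE livers at ZT12 and 32.8, 8.45 and 13.2 FPKM in KO livers at ZT16, against 4.25 to 8.64 FPKM over all WT livers. Its ratio of RE to WT was 2.74 (adjusted p = 0.189), and it was 2.39 without WT ZT8 liver 2 and 3.34 without WT ZT12 liver 1.

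Gluconeogenesis and fasting genes followed, with a median pooled SD of 0.54 in RE, 0.55 in KO and 0.35 in WT livers over 16 members and 15 wider in RE and 15 wider in KO than in WT livers, beside 86.7% and 78.8% of all genes. The median log2 ratio was 1.15 for RE and 1.29 for KO over WT, beside 1.11 and 0.77. By the F test 4 passed in RE and 0 in KO, beside 6.86% and 0.968%. Pck1, the rate-limiting enzyme of gluconeogenesis, read 571, 1209 and 1629 FPKM in RE livers, 404, 362 and 1734 FPKM in KO livers and 1018, 532 and 404 FPKM in WT livers at ZT8. The 3 genotypes overlapped and were all spread out. The pooled SD was 0.60 in RE, 0.64 in KO and 0.63 in WT livers, and the log2 variance ratio to WT was -0.14 for RE and 0.026 for KO. Creb3l3, a transcription factor of the fasted liver, read 107, 162 and 198 FPKM at ZT8 and 112, 101.0 and 41.0 FPKM at ZT16 in RE livers, against 109.8 to 159 FPKM over all WT livers. Its ratio of RE to WT of 3.71 (adjusted p = 0.168) was 2.45 without RE ZT16 liver 2.

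**Figure D4:**
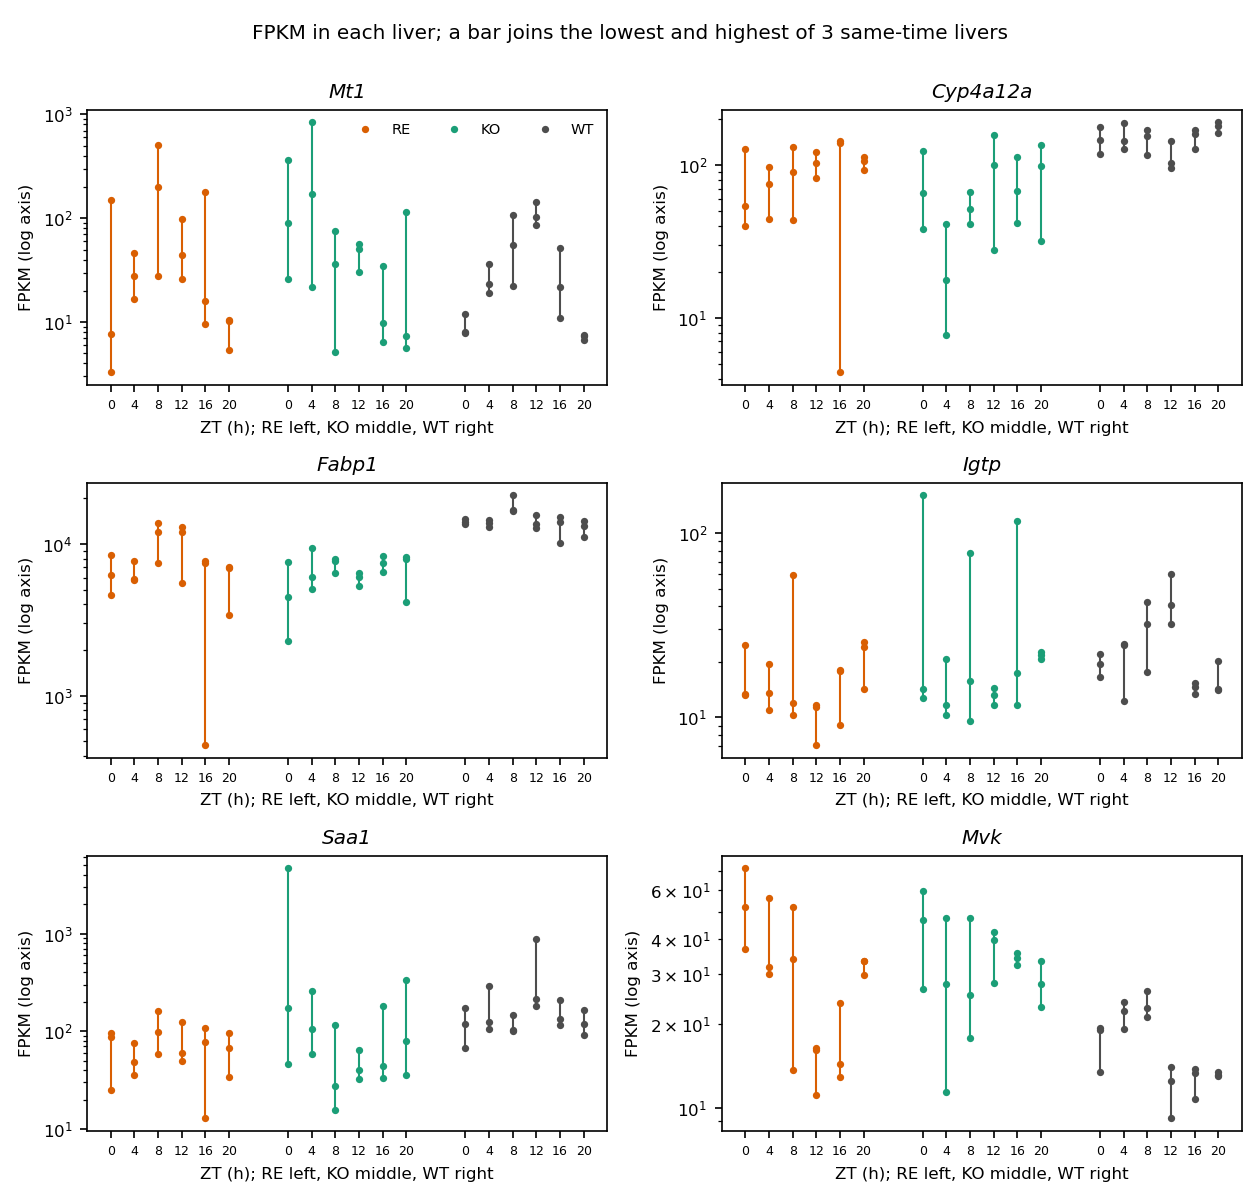
FPKM of Mt1, Cyp4a12a, Fabp1, Igtp, Saa1 and Mvk in each of the 54 livers (y axis, log scale), with 1 point per liver. Each panel has a block for RE (left), KO (middle) and WT (right), with clock time in hours within each block (x axis). Single livers stand apart from their group in RE or KO mice, such as Cyp4a12a at 4.41 FPKM in RE at ZT16 and Igtp at 159.9 FPKM in KO at ZT0.

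Targets of the fasting receptor PPAR alpha and other fat oxidation genes had median ratios above that of all genes in RE livers and below it in KO livers. Over 33 of 34 members the median pooled SD was 0.43 in RE, 0.28 in KO and 0.26 in WT livers. The variance was larger in RE than in WT livers for 32 of 33 and larger in KO than in WT livers for 22, beside 86.7% and 78.8% of all genes, with median log2 ratios of 1.61 and 0.48 beside 1.11 and 0.77. In RE against KO livers 31 of 33 were larger, with a median of 1.11, beside 65.1% and 0.35 for all genes. By the F test, 5 passed as wider in RE, 0 wider in KO and 1 narrower in KO against WT, beside 6.86%, 0.968% and 0.148% of all genes. Without RE ZT8 liver 0 the RE over WT median was 0.98. In that liver the list lay at -0.57 (log2) from the mean of its group, while RE ZT8 liver 2 lay at 0.52 on the other side.

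Fabp1, the fatty acid binding protein of liver, read 7455, 7746 and 473 FPKM in RE livers at ZT16. It ran from 473 to 13818 FPKM with a median of 7233 FPKM in RE, from 2297 to 9336 FPKM with a median of 6463 FPKM in KO and from 10106 to 20829 FPKM with a median of 13992 FPKM in WT livers. No KO liver reached the lowest WT liver, and RE ZT16 liver 2 lay below every other. The pooled SD was 1.05 in RE, 0.47 in KO and 0.18 in WT livers. The log2 variance ratio was 5.14 for RE over WT (limma, adjusted p = 0.19), 2.78 without RE ZT16 liver 2 and 6.03 without WT ZT16 liver 0. Cpt1a, the gate of fatty acid entry into mitochondria, read 51.4, 146 and 155 FPKM in RE livers and 95.3, 103 and 99.1 FPKM in WT livers at ZT8. Its ratio of 2.66 (adjusted p = 0.229) was 1.36 without RE ZT8 liver 0. Acot3, an acyl-CoA thioesterase of peroxisomes, was the member with the smallest KO to WT ratio (log2 ratio -3.41, adjusted p = 0.309), with a pooled SD of 0.62 in RE, 0.22 in KO and 0.72 in WT livers. Its level was 0.0171 to 0.842 FPKM in KO against 0.0835 to 9.84 FPKM in WT livers, and log2(FPKM + 1) compresses values below 1.

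Genes of cholesterol synthesis and uptake were wider without exception in both RE and KO livers. All 26 members had a larger variance in RE than in WT livers and all 26 in KO than in WT livers, beside 86.7% and 78.8% of all genes. The median pooled SD was 0.51 in RE, 0.51 in KO and 0.23 in WT livers, and the median log2 ratio was 2.09 for RE and 2.14 for KO over WT. F test calls numbered 4 members in RE and 0 in KO, beside 6.86% and 0.968% of all genes. With single livers left out the medians ranged from 1.60 without RE ZT8 liver 2 to 2.37 without RE ZT8 liver 1 for RE, and from 1.54 without KO ZT4 liver 1 to 2.54 without KO ZT4 liver 2 for KO. In RE against KO livers 10 of 26 members were wider, beside 65.1% of all genes. Their median was -0.19, which ranged from -0.74 without RE ZT8 liver 2 to 0.35 without KO ZT4 liver 1.

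Mvk, mevalonate kinase, read 52.3, 33.9 and 13.7 FPKM in RE livers at ZT8 and 47.8, 11.4 and 27.6 FPKM in KO livers at ZT4. In WT livers no group was as wide, with 22.8, 26.1 and 21.0 FPKM at ZT8 and 24.0, 19.2 and 22.1 FPKM at ZT4. The pooled SD was 0.52 in RE, 0.58 in KO and 0.20 in WT livers, with log2 variance ratios to WT of 2.78 in RE (limma, adjusted p = 0.239) and 3.06 in KO (adjusted p = 0.641). The RE ratio was 1.97 without RE ZT8 liver 2 and 3.37 without RE ZT8 liver 1. Members deviated together within livers. In RE ZT8 liver 2 the mean of the list lay at -0.71 with 25 of its 26 members on that side, and in KO ZT4 liver 1 it lay at -0.83 with 25 of its 26 members on that side. KO ZT4 liver 0 lay at 0.69 with 25 of its 26 members on that side.

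Fat synthesis genes had a median pooled SD of 0.48 in RE, 0.56 in KO and 0.31 in WT livers over 24 of 26 members. They were wider than in WT livers for 22 in RE and 23 in KO, beside 86.7% and 78.8% of all genes. Their median log2 ratios were 1.43 and 1.35, beside 1.11 and 0.77 for all genes. The F test called 3 wider in RE, 1 wider in KO and 1 narrower in KO, beside 6.86%, 0.968% and 0.148% of all genes. Scd2, a fatty acid desaturase, read 12.9, 3.61 and 9.01 FPKM in RE livers at ZT0 and 12.5, 7.92 and 2.18 FPKM in KO livers at ZT8, against 0.733 to 1.76 FPKM over all WT livers. Its pooled SD was 0.49 in RE, 0.67 in KO and 0.14 in WT livers, and its log2 ratio to WT was 3.59 in RE (adjusted p = 0.211) and 4.47 in KO (adjusted p = 0.309). The RE ratio was 2.89 without RE ZT0 liver 1 and 4.20 without WT ZT8 liver 2, and the KO ratio 3.83 without KO ZT8 liver 2 and 5.09 without WT ZT8 liver 2. Over all times it lay at 1.51 to 12.9 FPKM in RE and 2.18 to 14.0 FPKM in KO livers. Every KO liver lay above every WT liver, and the pseudocount compresses the low WT values most. Pnpla3, a lipid droplet lipase, went the other way and was 1 of the 3 genes that limma called in KO against WT livers (SD difference -0.52 ± 0.10 (SE), adjusted p = 0.00933). With each liver left out in turn it passed in 49 of 54 fits, and not without KO ZT8 liver 0, RE ZT16 liver 0 or 1, WT ZT8 liver 1 or WT ZT20 liver 1 (adjusted p up to 0.301). It read 0.136, 0.114 and 0.160 FPKM in KO livers and 1.27, 12.1 and 2.60 FPKM in WT livers at ZT20, and with at most 0.647 FPKM it had little room to spread in KO livers. Its pooled SD was 0.30 in RE, 0.13 in KO and 0.73 in WT livers. Acaca, the rate-limiting carboxylase of fat synthesis, had an RE to WT ratio of 0.21 (limma, adjusted p = 0.654).

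Most interferon-response genes and genes of MHC and antigen presentation had a larger variance in KO than in RE livers. The interferon list, 25 of 28 members, had a median pooled SD of 0.40 in RE, 0.51 in KO and 0.26 in WT livers, and the MHC list, 18 of 21 members, 0.37 in RE, 0.51 in KO and 0.18 in WT livers. Against WT livers, the interferon genes were wider for 25 of 25 in RE and 24 in KO, with median log2 ratios of 1.40 and 2.16. The MHC genes were wider for 17 of 18 in RE and 18 in KO, with medians of 1.47 and 2.73. Of all genes 86.7% were wider in RE and 78.8% in KO, with medians of 1.11 and 0.77. RE livers exceeded KO livers for 6 interferon genes and 1 MHC gene, where 65.1% of all genes were wider in RE. The F test called 3 wider in RE and 3 in KO in the interferon list, and 3 and 3 in the MHC list, beside 6.86% and 0.968% of all genes. The MHC excess in KO leaned on 1 liver: without KO ZT8 liver 0 the KO over WT median was 1.61 and the RE over KO median 0.15. Without RE ZT8 liver 0 the RE over WT median was 0.84, and without KO ZT8 liver 2 the RE over KO median was -1.13. For the interferon list the KO over WT median stayed between 1.74 without KO ZT0 liver 1 and 2.47 without KO ZT16 liver 2, and the RE over KO median of -0.74 between -1.08 without RE ZT16 liver 2 and -0.37 without KO ZT0 liver 1.

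Igtp (also Irgm3), a GTPase induced by interferon gamma, read 14.2, 159.9 and 12.8 FPKM in KO livers at ZT0, 77.8, 15.9 and 9.55 FPKM at ZT8 and 11.7, 116 and 17.5 FPKM at ZT16. A single liver was high at each of these times, and the KO livers at the other times lay at 10.3 to 22.6 FPKM. In RE livers 1 liver at ZT8 was high, among 59.3, 10.3 and 11.9 FPKM, and WT livers lay at 12.3 to 59.8 FPKM. The pooled SD was 0.68 in RE, 1.26 in KO and 0.41 in WT livers, and the log2 variance ratio of KO to WT was 3.23 (limma, adjusted p = 0.568). It was 2.45 without KO ZT0 liver 1. Its relatives followed: Irgm2 read 13.7, 75.9 and 11.4 FPKM and Irgm1 33.6, 106 and 28.2 FPKM in the same 3 KO livers at ZT0, with KO to WT ratios of 3.30 and 3.22 (adjusted p = 0.564 and 0.505). The ubiquitin-like Isg15, a type I interferon gene, read 35.3, 23.6 and 7.08 FPKM in RE livers at ZT16 (RE to WT ratio 3.01, adjusted p = 0.218). That ratio was 2.02 without RE ZT16 liver 2 and 4.11 without WT ZT12 liver 2.

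The promoters of Igtp, Irgm2 and Isg15 are shown for the motif these genes share, with capitals at matches on either strand to the core of the interferon-stimulated response element, GAAA, then any 2 bases, then GAAA again (RefSeq, GRCm38.p6, 250 bases before the gene's start, 5′ to 3′ on its strand).
Igtp (chr11:58199306-58199555, plus strand): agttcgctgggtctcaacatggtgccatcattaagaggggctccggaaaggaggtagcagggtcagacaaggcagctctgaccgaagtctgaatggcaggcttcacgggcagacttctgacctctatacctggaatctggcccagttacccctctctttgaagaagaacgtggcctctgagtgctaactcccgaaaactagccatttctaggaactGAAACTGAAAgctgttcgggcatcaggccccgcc
Irgm2 (chr11:58214727-58214976, plus strand): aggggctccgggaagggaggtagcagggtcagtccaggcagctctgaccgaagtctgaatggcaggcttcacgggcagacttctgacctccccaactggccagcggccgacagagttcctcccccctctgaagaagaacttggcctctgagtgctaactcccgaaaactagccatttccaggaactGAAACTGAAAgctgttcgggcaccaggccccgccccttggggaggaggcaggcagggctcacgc
Isg15 (chr4:156200819-156201068, minus strand): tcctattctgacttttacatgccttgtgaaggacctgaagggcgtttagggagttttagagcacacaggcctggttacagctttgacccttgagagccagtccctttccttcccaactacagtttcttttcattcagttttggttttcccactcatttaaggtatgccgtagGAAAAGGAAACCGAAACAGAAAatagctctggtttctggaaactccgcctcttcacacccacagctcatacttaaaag
Igtp and Irgm2 held 1 match each and Isg15 held 3 overlapping ones. The promoter of Psmb9 was scanned as well and held 0. The motif was in 14 of the 21 interferon-list promoters found in the table (66.7%) and in 936 of all 27025 (3.46%). In the MHC list it was in 2 of 14 (14.3%). The sterol response element, TCACNCCAC, was scanned likewise and lay in 1 of 18 cholesterol-list promoters (5.56%) and in 331 of all 27025 (1.22%). A match is a description and not a tested site.

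Of the MHC genes, H2-D1, a classical class I heavy chain, read 529, 183 and 214 FPKM in KO livers at ZT8, against 384, 291 and 331 FPKM in WT livers. Its KO to WT ratio of 3.29 (limma, adjusted p = 0.505) was 1.81 without KO ZT8 liver 0. Tapbp, the chaperone tapasin that loads peptides on class I molecules, read 44.1, 66.4 and 41.2 FPKM at ZT0 and 63.5, 34.7 and 48.1 FPKM at ZT8 in KO livers, and 33.0 to 49.1 FPKM over all WT livers. Its log2 ratio of KO to WT was 3.77 (adjusted p = 0.434), 3.25 without WT ZT4 liver 0 and 4.40 without WT ZT4 liver 2. In RE it was 2.95 (adjusted p = 0.301), 1.79 without RE ZT0 liver 2 and 3.58 without WT ZT4 liver 2. B2m, the invariant class I light chain, was the member with the smallest RE to KO ratio, -3.60 (limma, adjusted p = 0.622). It read 2874, 2513 and 2749 FPKM in RE livers and 3675, 2318 and 2220.0 FPKM in KO livers at ZT8. RE livers were close together, with pooled SDs of 0.071 in RE, 0.25 in KO and 0.098 in WT livers. Markers of Kupffer cells, the resident macrophages, were high in the same KO livers: in KO ZT8 liver 0 the MHC list lay at 1.08, the interferon list at 0.63 and the Kupffer list at 0.40 (log2 from the group mean). In KO ZT16 liver 1 they lay at 0.55, 0.72 and 0.44, and in KO ZT0 liver 1 at 0.52, 0.78 and 0.22. Summed over the 14 Kupffer and macrophage markers, FPKM ranged from 102 to 375 in RE, from 129 to 376 in KO and from 218 to 438 in WT livers, and none of the markers was at 0 in all livers. None of 16 listed T, NK and B cell markers reached a mean of 1 FPKM, and their sum never passed 15.8 FPKM. The part of these cells in the result was not tested. In whole liver, fewer cells of a type and less RNA per cell cannot be told apart.

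Acute phase genes, plasma proteins that the liver raises in inflammation, had a median pooled SD of 0.37 in RE, 0.37 in KO and 0.22 in WT livers over 24 members. They were wider than in WT livers for 21 in RE and 23 in KO, beside 86.7% and 78.8% of all genes. Median log2 ratios were 1.11 and 1.73, beside 1.11 and 0.77 for all genes. By the F test 2 (8.33%) passed in RE and 2 in KO, beside 6.86% and 0.968% of all genes. Saa1 and Saa2, serum amyloid A proteins, read 46.5, 174 and 4620.0 FPKM and 16.0, 63.6 and 2297 FPKM in KO livers at ZT0. KO ZT0 liver 2 was far above every other liver: Saa1 ran from 13.0 to 160.5 FPKM in RE and from 68.0 to 873 FPKM in WT livers. The pooled SD of Saa1 was 0.96 in RE, 1.79 in KO and 0.72 in WT livers, and the log2 ratio of KO to WT was 2.65 (adjusted p = 0.66), 1.63 without KO ZT0 liver 2 and 3.62 without WT ZT12 liver 1. That of Saa2 was 2.60 (adjusted p = 0.645). Orm2, an orosomucoid, read 15.5, 66.5 and 304 FPKM in the same KO livers and 18.4, 169 and 24.1 FPKM at ZT20 (ratio 3.34, adjusted p = 0.505), and it was 2.78 without KO ZT20 liver 1 and 3.92 without KO ZT0 liver 1. Hp, haptoglobin, read 1854, 1953 and 4032 FPKM in RE livers at ZT16 and 2837, 4522 and 1811 FPKM in KO livers at ZT4, and stayed at 1861 to 2435 FPKM over all WT livers. Its RE to WT ratio was 3.80 (adjusted p = 0.168), 3.07 without RE ZT16 liver 2 and 4.72 without WT ZT8 liver 0. The complement and coagulation genes had lower spreads, 0.18 in RE, 0.18 in KO and 0.11 in WT livers. Of these 26 genes, 7 passed the F test in RE and 0 in KO, beside 6.86% and 0.968% of all genes. Their median log2 ratio of RE over WT was 1.40, beside 1.11 for all genes.

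Genes that all cells use were also wider outside WT livers. Ribosomal protein genes had a median pooled SD of 0.22 in RE, 0.18 in KO and 0.11 in WT livers, beside 0.20, 0.17 and 0.13 for all genes. Of the 39, 38 were wider in RE and 38 in KO than in WT livers, beside 86.7% and 78.8% of all genes. Their median log2 ratio of 2.07 in RE stood beside 1.11 for all genes, and in KO it was 1.47 beside 0.77. The RE median is given with all livers only. F test calls numbered 5 in RE and 0 in KO, beside 6.86% and 0.968% of all genes. Rpl7 read 653, 649 and 1107 FPKM in RE livers at ZT16 and 581, 456 and 691 FPKM in KO livers at ZT8, against 468 to 615 FPKM over all WT livers. Its RE to WT ratio of 3.00 (adjusted p = 0.177) was 1.69 without RE ZT16 liver 2. Members deviated together: the list lay at -0.39 with 39 of its 39 members on that side in KO ZT8 liver 1, the library of the lowest total FPKM, and at 0.33 with 38 of its 39 members on that side in RE ZT16 liver 2. Without KO ZT8 liver 1 the KO over WT median was 0.56, and without KO ZT8 liver 0 it was 2.14. Total FPKM does not give the number of reads. Depth is unknown, and its part in this result was not tested.

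Ribosome biogenesis genes, which build ribosomes in the nucleolus, were low where the ribosomal proteins were high in RE ZT16 liver 2. The list lay at 0.59 with 19 of its 20 members on that side in RE ZT16 liver 0 and at -0.42 with 19 of its 20 members on that side in RE ZT16 liver 2. Mybbp1a, a nucleolar protein that binds MYB, read 25.0, 16.0 and 8.64 FPKM in RE livers at ZT16, against 16.4, 17.01 and 16.5 FPKM in WT livers. Its ratio of 4.00 (limma, adjusted p = 0.114) was 3.19 without RE ZT16 liver 2 and 4.73 without RE ZT16 liver 1. Over the list, 20 of 20 were wider in RE and 19 in KO than in WT livers, beside 86.7% and 78.8% of all genes. The median log2 ratios were 1.62 and 0.85, beside 1.11 and 0.77 for all genes, and without RE ZT16 liver 0 the RE median was 0.62. Unfolded protein response genes were wider than in WT livers for all 20 members in RE and all 20 in KO, beside 86.7% and 78.8% of all genes. Their pooled SDs were 0.33 in RE, 0.35 in KO and 0.23 in WT livers. None of them passed the F test in RE or in KO against WT, where 6.86% and 0.968% of all genes passed as wider. Their median log2 ratio was 1.06 in RE, beside 1.11 for all genes, with 0.39 without RE ZT16 liver 2 and 1.58 without RE ZT16 liver 1. It was 0.88 in KO, beside 0.77 for all genes, with 1.35 without WT ZT20 liver 2. Proteasome subunits and the respiratory chain had low spreads, at 0.13 in RE, 0.12 in KO and 0.083 in WT livers and 0.17 in RE, 0.15 in KO and 0.10 in WT livers, and none passed the F test in RE or in KO against WT.

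Most core clock genes had a smaller variance in RE and in KO than in WT livers. The 17 members tested had a median pooled SD of 0.27 in RE, 0.21 in KO and 0.22 in WT livers, and 7 of 17 had a larger variance in RE and 8 in KO than in WT livers, beside 86.7% and 78.8% of all genes. The median log2 ratio was -0.33 for RE and -0.16 for KO over WT, and with single livers left out it ranged from -0.87 without RE ZT12 liver 0 to 0.29 without WT ZT0 liver 0 in RE and from -0.59 without KO ZT12 liver 1 to 0.026 without KO ZT12 liver 0 in KO. The F test called 1 wider and 1 narrower in RE, beside 6.86% and 0.0889% of all genes. In KO it called 0, beside 0.968% of all genes wider and 0.148% narrower. Dbp, a clock-driven transcription factor, stayed at 0.849 to 2.42 FPKM in RE and at 0.925 to 2.97 FPKM in KO livers at all times. In WT livers it read 7.40, 18.5 and 30.2 FPKM at ZT4, between its low and its high times, and 73.4, 79.7 and 71.5 FPKM at ZT8, where the 3 livers were close.

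Arntl, the targeted gene, read 13.1, 13.3 and 13.3 FPKM in RE, 11.9, 12.4 and 13.4 FPKM in KO and 5.57, 2.54 and 1.39 FPKM in WT livers at ZT4. The WT livers were the least alike, and the pooled SD was 0.13 in RE, 0.13 in KO and 0.33 in WT livers. Its log2 ratio to WT was -2.67 in RE (limma, adjusted p = 0.375) and -2.65 in KO (adjusted p = 0.738), and it was the gene that the F test called narrower in RE. The RE value was -1.39 without WT ZT4 liver 0 and -3.52 without WT ZT4 liver 1. Per2, the clock gene that the F test called wider, read 6.77, 6.02 and 2.10 FPKM in RE livers at ZT0 and 1.28, 1.19 and 3.61 FPKM at ZT4, against 1.498, 0.942 and 1.58 FPKM at ZT0 and 1.38, 1.55 and 1.98 FPKM at ZT4 in WT livers. Its ratio of 2.68 (adjusted p = 0.194) was 2.07 without RE ZT0 liver 2. Per1 had ratios of 1.57 in RE and 1.72 in KO (limma, adjusted p = 0.56 and 0.714). It read 7.96, 3.43 and 14.6 FPKM in RE livers at ZT16 and 5.57, 3.73 and 2.83 FPKM in WT livers. Among the others, Clock had an RE over WT ratio of 1.51, Rora had an RE over WT ratio of 2.58, Nr1d2 had an RE over WT ratio of 1.53 and Nfil3 one of 0.89. Cry1 had -0.999, Per3 -1.14, Ciart -1.71 and Nr1d1 -0.67. None of these passed the F test or limma. Tef, Hlf, Cry2 and Bhlhe40 lay between -0.93 and 0.18. Npas2 was listed at 0 in some libraries while most lay above 5 FPKM, and it was set aside.

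The share of a gene's variance that lay between livers of one time differed more. Over the 18 livers of a genotype, 70.6% is expected with no effect of time. For core clock genes the median share was 49.4% in RE, 66.9% in KO and 4.48% in WT livers, beside 54.7%, 68.0% and 43.5% for all genes. Clock output genes gave 44.5% in RE, 68.9% in KO and 7.10% in WT livers. In WT livers the clock genes thus varied mostly between times, and in KO livers the share was close to that of all genes. Clock output genes had a median pooled SD of 0.50 in RE, 0.34 in KO and 0.27 in WT livers, with 12 of 18 wider in RE and 12 in KO than in WT livers, shares below the 86.7% and 78.8% of all genes. Elovl3, a fatty acid elongase of that list, read 948, 843 and 179 FPKM in RE and 729, 586 and 607 FPKM in WT livers at ZT0 (RE to WT ratio 2.80, adjusted p = 0.19), and its ratio was 1.77 without RE ZT0 liver 2 and 3.72 without WT ZT8 liver 0.

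Markers of the cell types in liver were read in the same way. Hepatocyte markers summed to 31409 to 59219 in RE, 30178 to 54865 in KO and 30836 to 41228 in WT livers (FPKM), above every other marker list in every liver. They were wider for all 10 members tested in RE and in KO than in WT livers, at pooled SDs of 0.26 in RE, 0.20 in KO and 0.13 in WT livers. Of all genes 86.7% were wider in RE and 78.8% in KO. Kupffer and macrophage markers were wider in RE for 14 of 14 (median log2 ratio 1.46) and in KO for 10 (median 0.44), at pooled SDs of 0.54 in RE, 0.36 in KO and 0.30 in WT livers. The RE median was 0.93 without RE ZT12 liver 0, 2.00 without WT ZT8 liver 1 and 0.81 without ZT12. The KO median was -0.29 without KO ZT16 liver 0 and 0.85 without KO ZT16 liver 2. Clec4f, the lectin that marks Kupffer cells, read 34.8, 9.65 and 14.6 FPKM in RE livers at ZT12, and the list mean of those livers lay at 0.88, -0.68 and -0.20. Endothelial markers were wider for 13 of 13 in RE and 12 in KO, and stellate cell and fibroblast markers for 5 and 6 of 12, at pooled SDs of 0.31 in RE, 0.31 in KO and 0.22 in WT livers. Oit3, a protein of liver sinusoidal endothelium, read 7.07, 2.59 and 4.74 FPKM in KO livers at ZT0, against 4.93 to 7.08 FPKM over all WT livers. Its log2 ratio to WT was 3.64 in RE and 4.70 in KO, and the RE ratio was 2.86 without RE ZT12 liver 1 and 4.92 without WT ZT4 liver 0. The KO ratio was 4.13 without WT ZT4 liver 1 and 5.98 without WT ZT4 liver 0. Red cell markers were wide in all 3 genotypes, at 0.56 in RE, 0.80 in KO and 0.85 in WT livers, and summed to 357 to 3221 in RE, 297 to 3914 in KO and 458 to 4799.8 in WT livers. Gut epithelium markers were narrower in RE and KO than in WT livers (median log2 ratios -1.21 and -1.27), but the medians were 2.47 and 1.16 without WT ZT0 liver 0, in which 1.46 was the mean deviation, with 4 of its 5 members on that side.

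**Figure D5:**
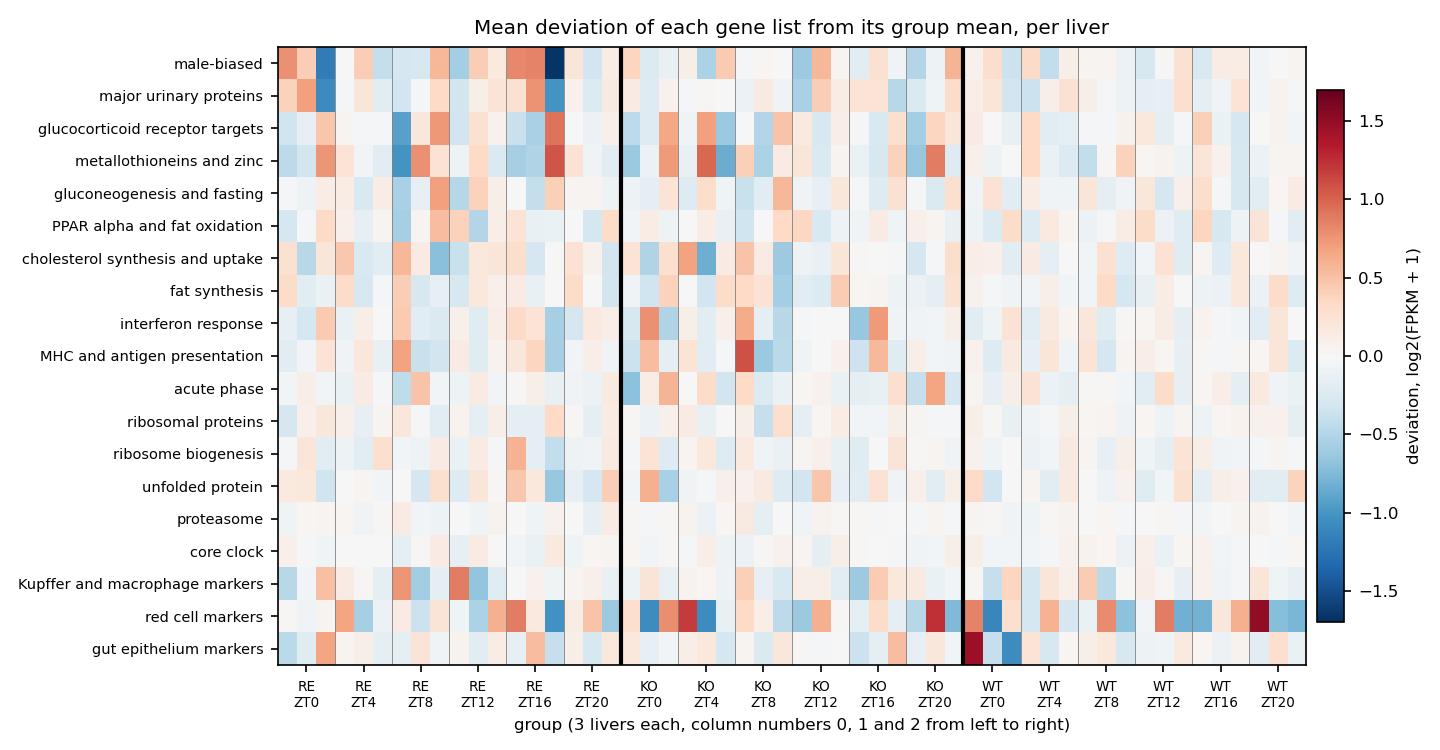
Mean deviation of each of 19 gene lists (down the page) in each of the 54 livers (across, RE left, then KO and WT, by clock time) from the mean of the 3 livers of its group, log2 scale, by colour. RE ZT16 liver 2 shows male-biased genes at -1.66 and glucocorticoid receptor targets at 0.93, KO ZT8 liver 0 shows MHC genes at 1.08, and most WT livers are pale outside red cell markers and the gut markers of ZT0.

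Members of many lists deviated together within single livers, as the map of list deviations by liver shows. The mean of the male-biased genes had a pooled SD of 0.81 in RE, 0.42 in KO and 0.25 in WT livers, and that of the cholesterol genes 0.41, 0.45 and 0.19. The interferon list had 0.33, 0.47 and 0.17, and the proteasome list 0.091, 0.079 and 0.049. RE ZT16 liver 2 lay at -1.66 in male-biased genes, -1.02 in major urinary proteins and 0.93 in glucocorticoid receptor targets (log2 from the group mean). It also lay at -0.56 in interferon and -0.56 in MHC genes. RE ZT8 liver 0 lay at -0.93 in glucocorticoid receptor targets, 0.56 in cholesterol genes and 0.69 in MHC genes. These livers stood apart in partly different lists. Columns of one number did not deviate together: the mean correlation of deviations between same-numbered livers of a genotype was -0.012 in RE, -0.019 in KO and 0.041 in WT livers over 45 pairs each.

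Genes past the strict test were few and mostly low. Them5, a thioesterase, was wider in KO livers (limma, SD difference 0.44 ± 0.0996 (SE), adjusted p = 0.0452), with 0.656, 3.26 and 0.367 FPKM in KO and 0.310, 0.491 and 0.236 FPKM in WT livers at ZT12. Over all times it lay at 0.242 to 3.26 FPKM in KO and 0.0786 to 0.491 FPKM in WT livers. In RE livers Cdx4, Chrna2 and 1 gene model with no symbol of its own were wider (adjusted p = 0.0275, 0.0275 and 0.0101). Cdx4 and Chrna2 had means of 1.01 and 1.64 FPKM. With each of the 54 livers left out in turn Them5 passed 20 times, Cdx4 36 times, Chrna2 34 times and the gene model 48 times, and the adjusted p reached 0.665, 0.288, 0.228 and 0.228. Mup14 was also called in KO, but was listed at 0 in some libraries and gets no fold. Them5, Cdx4 and Chrna2 lie below 5 FPKM and were named after their values were seen, as was Mup14. No gene with a symbol, a mean of 5 FPKM or more and no library at 0 passed, and the 5 with the smallest p are given for each comparison. For RE against WT livers they were Wasl, Acsl1, Dnaja3, Sepp1 and Aadat, all wider in RE (adjusted p = 0.114 for each). Acsl1, which activates long fatty acids, had pooled SDs of 0.57 in RE, 0.30 in KO and 0.11 in WT livers. For KO against WT they were Slc34a2, Ly6d, Oit3, Wfdc21 and AW112010, all wider in KO (adjusted p = 0.0762 to 0.309). Slc34a2, a phosphate carrier, had pooled SDs of 0.55 in RE, 0.81 in KO and 0.12 in WT livers. For RE against KO they were Slc16a1, B2m, Rab3gap1, Plin2 and Dnaja3 (adjusted p = 0.622 for each), of which B2m was the narrower in RE and the others the wider. Plin2, a coat protein of lipid droplets, had pooled SDs of 0.49 in RE, 0.15 in KO and 0.26 in WT livers. Between RE and KO livers limma called none, and the F test called 15 genes (0.148%). Slc16a1, a lactate and ketone body transporter, was 1 of the wider ones: it read 39.2, 28.7 and 18.2 FPKM in RE and 27.7, 27.0 and 26.9 FPKM in KO livers at ZT16 (log2 ratio 3.97, adjusted p = 0.0259 by the F test and 0.622 by limma). Its ratio was 3.49 without RE ZT8 liver 0.

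The lists of the 10 widest genes at one clock time shared Hba-a2, Eif3j1 and Cyp4a14 in all 3 genotypes. Among named genes averaging 5 FPKM or more in the genotype, the 10 widest in RE livers were Hba-a2, Eif3j1, Cyp4a14, Moxd1, Oaz1-ps, Cyp2c69, Mt2, Amd1, Serpina4-ps1 and Mt1, with pooled SDs from 2.34 down to 1.74. In KO livers they were Hba-a2, Mt2, Saa2, Eif3j1, Mt1, Cyp4a14, Cyp2c69, Saa1, Ly6d and Cish, from 2.30 to 1.67. In WT livers they were Hbb-bs, Hba-a2, Eif3j1, Amd1, Cyp4a14, Erdr1, Cish, Amd2, Tff3 and Egr1, from 2.48 to 1.25. Some of these are near-identical pairs among which reads can fall to either copy. The sum of Eif3j1 and Eif3j2 had pooled SDs of 0.22 in RE, 0.13 in KO and 0.098 in WT livers, against 2.09 in RE, 1.91 in KO and 1.88 in WT livers for Eif3j1 alone. The sum of Amd1 and Amd2 had 0.28, 0.24 and 0.22, and that of the alpha globins Hba-a1 and Hba-a2 0.64, 0.92 and 0.89. For metallothioneins and serum amyloids the sums stayed wide, with 1.80, 1.91 and 0.68 for Mt1 and Mt2 and 0.90, 1.85 and 0.73 for Saa1 and Saa2 in RE, KO and WT livers. Cyp4a14, a fatty acid hydroxylase switched on by PPAR alpha, read 2.36, 11.5 and 209 FPKM in RE livers at ZT0, 397, 8.28 and 20.0 FPKM in KO livers at ZT12 and 17.8, 5.97 and 79.5 FPKM in WT livers at ZT0. It was wide in every genotype, with pooled SDs of 1.98 in RE, 1.84 in KO and 1.42 in WT livers. Ly6d, a surface protein better known from lymphoid and epithelial cells, read 171, 10.7 and 4.10 FPKM in KO livers at ZT8 and 0.416 to 2.54 FPKM over all WT livers. Its KO to WT ratio was 5.10 (limma, adjusted p = 0.105) and 4.48 without KO ZT8 liver 0.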

How the data were processed

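RNA-seq of whole mouse liver was aligned with TopHat to mm10, per the submitters' processing notes. For the TopHat version, the annotation and the FPKM tool, the sources used here name none. Deposited by the authors was 1 table of FPKM for 24346 gene symbols and 54 libraries, with no counts. Its column names give genotype, time and a number from 0 to 2 that is not the replicate number of the sample titles, so columns were assigned to groups and never paired. No 2 columns were identical.

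Genes with a mean of 1 FPKM or more were used. The SD of log2(FPKM + 1), with a pseudocount of 1, was taken in each of the 18 groups. limma 3.58.1 in R 4.3.3 (trend and robust) was fitted across all genes to these SDs with genotype and time as terms, two-sided, with Benjamini-Hochberg adjustment and a threshold of 0.05. The F test of averaged variances had 12 and 12 degrees of freedom. Tables were handled in Python 3.11.15 with pandas 2.3.3. Both were tested on simulated data, where heavy-tailed deviations made the F test call many unchanged genes. Alternatives changed the pseudocount, filter, scale, terms, block and samples. Ratios understate the spread of low genes. Gene lists and the genotypes' comparison were chosen with earlier results of these data known, and lists get no p. Named are the 10 widest genes of each genotype averaging 5 FPKM or more, called genes at that level or, where none passed, the 5 with the smallest p, up to 3 members of each list with the largest and 2 with the smallest ratio per comparison, 8 rate-limiting enzymes and the core clock genes; other names were chosen after their values were seen. Gene models without a symbol are counted only. There were 55 genes listed at 0 in some library while the median of the others was 5 FPKM or more, 45 of them among the genes tested; they get no fold and stay out of list counts. Promoters come from RefSeq on GRCm38.p6. With a liver left out, its group's variance comes from the other 2 livers and is averaged as before; for limma its SD is rescaled for the smaller group, and the F test pools over degrees of freedom. Some genes that the naming rule covers are not reported here.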

Additional observations from a re-analysis of the deposited data

How the results depend on the processing

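The overall difference passed 0.05 when times were permuted unpaired: 0.0509 for RE minus WT (exact permutation, adjusted p = 0.0455) and 0.0311 for KO minus WT (adjusted p = 0.0487). With each liver left out in turn it ranged from 0.0389 to 0.0559 for RE minus WT, from 0.0207 to 0.0355 for KO minus WT and from 0.00775 to 0.0302 for RE minus KO, and all other alternatives kept its sign. The median was larger in RE than in WT livers at 5 of 6 times, not 6 (adjusted p = 0.1875), with a pseudocount of 0.1, no filter, a 5 FPKM filter or median-ratio scaling.

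The counts of genes called were small and moved with most settings. For RE minus WT, limma called 3; the count was 1 with a 5 FPKM filter, without a time term, and without ZT0, ZT8 or ZT12. It was 8 on log2 of the SD, 704 by the F test, and 0 without ZT20 (1475 genes at an unadjusted p under 0.05). With single livers left out it ranged from 0 to 5. For KO minus WT, limma called 3; the count was 0 with a pseudocount of 0.1 (727 unadjusted), without ZT4 (595) and without ZT20 (762). It was 1 with a 5 FPKM filter, without a time term, without genes listed at 0, and without ZT8 or ZT12. It was 6 without ZT16, 9 with both genotypes fitted alone, 19 on log2 of the SD and 113 by the F test, and 0 to 9 with single livers left out. For RE minus KO, limma called 0; the count was 15 by the F test, 1 with both genotypes fitted alone, and 0 to 1 with single livers left out. Chosen after seeing the data, leaving out RE ZT16 liver 2 and WT ZT0 liver 0 together gave 8 calls for KO minus WT, and F test counts with single livers left out ranged from 152 to 866 (RE minus WT), 82 to 145 (KO minus WT) and 10 to 17 (RE minus KO).

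With the column number as a replicate block the counts were 391 for RE minus WT, 15 for KO minus WT and 14 for RE minus KO, and the overall differences 0.0570, 0.0344 and 0.0226. The number is not known to pair livers, and same-numbered livers did not deviate together, with a correlation over 0.1 in 11, 10 and 17 of 45 pairs in RE, KO and WT livers. Of 9288 recomputed list medians 15 moved beyond the spread over times and 301 changed sign; of 7302 recomputed gene ratios 5 moved and 353 changed sign. Ratios past the F test reversed for Defa24 (RE over WT 1.26, KO over WT 0.33) and Reg3b (KO over WT 1.06) without WT ZT0 liver 0, and for Cela2a (RE over WT -1.39) without RE ZT16 liver 2. The cause was not tested. Depth is unknown, and 3 livers a group limit each SD.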

Other observations

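Further lists showed single genes that were close among WT livers and spread elsewhere. Over all genes 86.7% were wider in RE and 78.8% in KO than in WT livers, the median log2 ratios were 1.11 and 0.77, and 6.86% and 0.968% passed the F test as wider. Amino acid and urea genes had 23 of 26 members wider in RE and 19 in KO than in WT livers (median log2 ratios 1.60 and 0.81), and 5 and 1 past the F test. Glul, the glutamine synthetase of pericentral hepatocytes, read 424, 299 and 158 FPKM in RE livers at ZT0 and 397, 361 and 131 FPKM in KO livers at ZT16, against 354 to 553 FPKM over all WT livers. In each of these groups liver 2 was the low one, and the pooled SD was 0.41 in RE, 0.45 in KO and 0.13 in WT livers. The log2 ratio to WT was 3.42 in RE (limma, adjusted p = 0.188) and 3.64 in KO (adjusted p = 0.659), and it was 2.74 without RE ZT0 liver 2 and 2.17 without KO ZT16 liver 2. Cps1, the first enzyme of the urea cycle, read 608, 1094 and 575 FPKM in RE livers at ZT12 and 642 to 1206 FPKM over all WT livers. Xenobiotic genes had 28 of 30 members wider in RE and 28 in KO than in WT livers (median log2 ratios 1.26 and 1.48), and 3 and 1 past the F test. Sult1a1, a sulfotransferase, read 131, 58.6 and 379 FPKM in RE livers at ZT16 and 89.4, 195 and 71.8 FPKM in KO livers at ZT20, against 192 to 365 FPKM over all WT livers. One liver of each group was as high as WT livers and the others lay below.

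Hamp, the iron hormone hepcidin, read 132, 749 and 309.7 FPKM in RE and 1258, 378 and 238 FPKM in KO livers at ZT20, against 2044 to 5702 FPKM over all WT livers. Its pooled SD was 0.66 in RE, 1.02 in KO and 0.34 in WT livers, and its KO to WT ratio was 3.15 (limma, adjusted p = 0.381). Apolipoprotein genes had 16 of 18 members wider in RE and 18 in KO than in WT livers (median log2 ratios 1.64 and 1.28), and 3 and 1 past the F test. Apoa5, which promotes the clearance of plasma triglycerides, read 242, 585 and 564 FPKM in RE livers at ZT20 and 491, 457 and 986 FPKM in KO livers at ZT8, against 558 to 742 FPKM over all WT livers. Immediate early and SRF genes had 11 of 16 members wider in RE and 12 in KO than in WT livers (median log2 ratios 0.40 and 0.86), and 3 and 2 past the F test. Their shares of wider members and the RE median lay below those of all genes. Actb, the beta actin often used to normalise qPCR, read 623, 419 and 229 FPKM in RE livers at ZT16 and 317, 236 and 525 FPKM in KO livers at ZT4. Its WT livers of one time were close, with pooled SDs of 0.39 in RE, 0.33 in KO and 0.075 in WT livers. The log2 ratio to WT was 4.72 in RE (limma, adjusted p = 0.163) and 4.28 in KO (adjusted p = 0.505). The RE ratio was 3.97 without RE ZT16 liver 2 and 5.37 without RE ZT16 liver 1, and the KO ratio 3.60 without KO ZT4 liver 2. The rate-limiting enzymes Cyp7a1, of bile acid synthesis, and Alas1, of heme synthesis, were wide in every genotype, with pooled SDs of 0.77 in RE, 0.70 in KO and 0.64 in WT livers for Cyp7a1 and 1.13 in RE, 1.34 in KO and 0.73 in WT livers for Alas1.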
